A study of Mus musculus with 16 samples.

Results

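The genes described here were 10 components of the TGF-beta and BMP pathways, namely the ligand genes Tgfb1, Inhba and Bmp4, the activin antagonist Fst, the latent TGF-beta binding protein gene Ltbp1, the endothelial receptor genes Acvrl1 and Eng, and the response genes Id1, Id3 and Pmepa1. Their members were all probe sets on either chip of the MG_U74 set whose platform annotation gave a single symbol from this list. That rule found 20 of 24833 probe sets other than controls, 12 on MG_U74Av2 (chip A) and 8 on MG_U74Bv2 (chip B), for 10 of 13674 annotated genes. Every one of the 10 had at least 1 probe set bright enough to be tested. In all, 16 of the 20 probe sets passed the level filter, and the 4 that did not are given below with their signals.

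The cells were mouse endothelial cell lines made from embryonic stem cells in which both copies of the VE-cadherin gene (Cdh5, here VEC) were null, an origin that the labels give for all 16 arrays. The 4 conditions were VEC-positive confluent, VEC-null confluent, VEC-positive sparse and VEC-null sparse cells, all starved for 36 h in MCDB 131 medium with albumin. The sources used here do not say how the VEC-positive cells carry VE-cadherin or whether a line is 1 clone. Each condition was 1 cRNA sample, made from 15 µg of total RNA and hybridised to 2 copies of each chip. The 2 array copies are therefore technical, and the p values measure the spread between hybridisations and not between cultures. Genotype, line and culture cannot be told apart in this design, and the word genotype below stands for the VEC label of a condition.

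TGF-beta and activin dimers bind type II and type I serine kinase receptors that phosphorylate Smad2 and Smad3, whereas BMPs act through Smad1, Smad5 and Smad8 (Smad9) and switch on the Id genes. Endothelial cells carry in addition the type I receptor ALK1 (Acvrl1) and its co-receptor endoglin (Eng), through which BMP9 and BMP10 signal, and mutations of either gene cause hereditary haemorrhagic telangiectasia in people. Ligand activity is limited outside the cell by antagonists and by storage of latent TGF-beta in the matrix, and inside the cell by feedback proteins such as Smad6, Smad7 and Pmepa1.

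Promoter windows from RefSeq (mouse GRCm38.p6, 250 bases before to 50 after the gene start) were matched for 6 of the 10 genes, namely Tgfb1, Inhba, Bmp4, Eng, Ltbp1 and Id3. Shown are those of the 3 ligand genes, which responded to cell density in opposite directions, and of Id3, whose density response differed between the lines. Each was searched on both strands for the BMP-responsive element GGCGCC, the full Smad element GTCTAGAC, the short Smad element CAGAC, which reads GTCTG on the other strand, and the E-box CACGTG, and capitals mark the matches. The letters of the full Smad element do not include the short one on either strand, so that the searches do not count the same letters.
Tgfb1 (chr7:25686752-25687051, plus strand): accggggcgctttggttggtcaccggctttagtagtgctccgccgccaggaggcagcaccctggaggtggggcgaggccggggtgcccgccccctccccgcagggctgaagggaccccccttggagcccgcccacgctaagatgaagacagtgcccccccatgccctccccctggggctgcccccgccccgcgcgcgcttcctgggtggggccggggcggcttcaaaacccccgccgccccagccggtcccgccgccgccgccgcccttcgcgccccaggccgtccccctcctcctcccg
Inhba (chr13:16011601-16011900, plus strand): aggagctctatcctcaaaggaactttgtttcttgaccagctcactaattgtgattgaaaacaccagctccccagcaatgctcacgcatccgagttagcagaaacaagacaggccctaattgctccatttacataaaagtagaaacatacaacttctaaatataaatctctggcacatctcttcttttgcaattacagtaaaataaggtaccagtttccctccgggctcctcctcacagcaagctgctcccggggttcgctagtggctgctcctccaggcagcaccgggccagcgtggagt
Bmp4 (chr14:46390620-46390919, minus strand): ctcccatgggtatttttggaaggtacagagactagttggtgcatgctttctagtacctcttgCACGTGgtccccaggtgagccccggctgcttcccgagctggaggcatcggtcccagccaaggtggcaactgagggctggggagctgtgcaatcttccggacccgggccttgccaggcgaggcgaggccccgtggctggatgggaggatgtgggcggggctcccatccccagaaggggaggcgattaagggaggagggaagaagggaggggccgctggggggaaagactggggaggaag
Id3 (chr4:136143572-136143871, plus strand): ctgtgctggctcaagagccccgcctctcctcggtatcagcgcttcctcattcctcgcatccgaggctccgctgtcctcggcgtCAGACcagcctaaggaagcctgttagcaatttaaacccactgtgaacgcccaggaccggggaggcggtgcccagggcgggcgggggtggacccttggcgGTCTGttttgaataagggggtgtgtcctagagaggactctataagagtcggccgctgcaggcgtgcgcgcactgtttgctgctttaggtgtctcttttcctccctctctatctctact

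None of the 4 motifs lay in the Tgfb1 or the Inhba window. The Bmp4 window held 1 CACGTG, at -188 from the gene start, and the Id3 window held CAGAC at -167 and, on the other strand, at -68. Of 32851 promoter windows of this length, 7.15% held CACGTG, 49.6% CAGAC, 11.9% GGCGCC and 0.213% GTCTAGAC. The base composition was 77.0% G and C for Tgfb1, 47.7% for Inhba, 64.0% for Bmp4 and 60.0% for Id3. The Eng window held 2 short elements, and the Ltbp1 windows, 1 for each of 2 starts, held 1 and 2. These are descriptions of letters and not of bound sites.

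The deposited values were MAS5 signals, a linear brightness per probe set that the authors scaled to a target of 500 on every array. Array medians on chip A were 139.8 to 151.9 in sparse and 164.3 to 174.1 in confluent cells, and the part of this split in the density results was not tested. On chip B they lay between 223.2 and 251, and the densities overlapped. The 2 copies of a condition correlated at 0.951 to 0.989 on the log2 scale. The 3' to 5' ratio of the Gapdh control probe sets was 1.23 and 1.14 on the chip B arrays of VEC-positive confluent cells, the chip that carries both Pmepa1 probe sets, and 0.903 to 1.01 on all other arrays. The Gapdh 3' control was lowest in VEC-positive confluent cells, with chip A values of 12920 and 12788, where the other conditions had 16729 to 21421, and its part in the results was not tested. Of 16 endothelial markers, 14 were on the chips and 14 passed the filter, and their summed signal was 65141 in VEC-positive confluent, 60983 in VEC-null confluent, 28809 in VEC-positive sparse and 16996 in VEC-null sparse cells. In the comparison of confluent with sparse cells, 9 of these 14 were higher in the VEC-positive line and 10 in the VEC-null line, by the rule for passing given below. Of all tested probe sets, 8.13% and 9.08% were higher by that rule. In bulk samples fewer cells of a type and less RNA per cell cannot be told apart. Cdh5 itself had a signal of 2566.5 in VEC-positive confluent and 2607.9 in VEC-null confluent cells, and of 1399.1 in VEC-positive sparse and 1268.5 in VEC-null sparse cells. Which part of the gene is deleted is not given, so this probe set checks no label.

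Changes were tested with limma on log2(signal + 50), so that a fold is a ratio of signals plus 50 and understates the change of dim genes. To pass, a probe set needed a log2 change of at least 1 and an adjusted p (Benjamini-Hochberg over the 14301 probe sets tested on both chips) below 0.05. Differences that met the p but not the size are given as values. The 4 comparisons share arrays in pairs, and each comparison's values for the members are therefore set side by side.

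**Figure D1:**
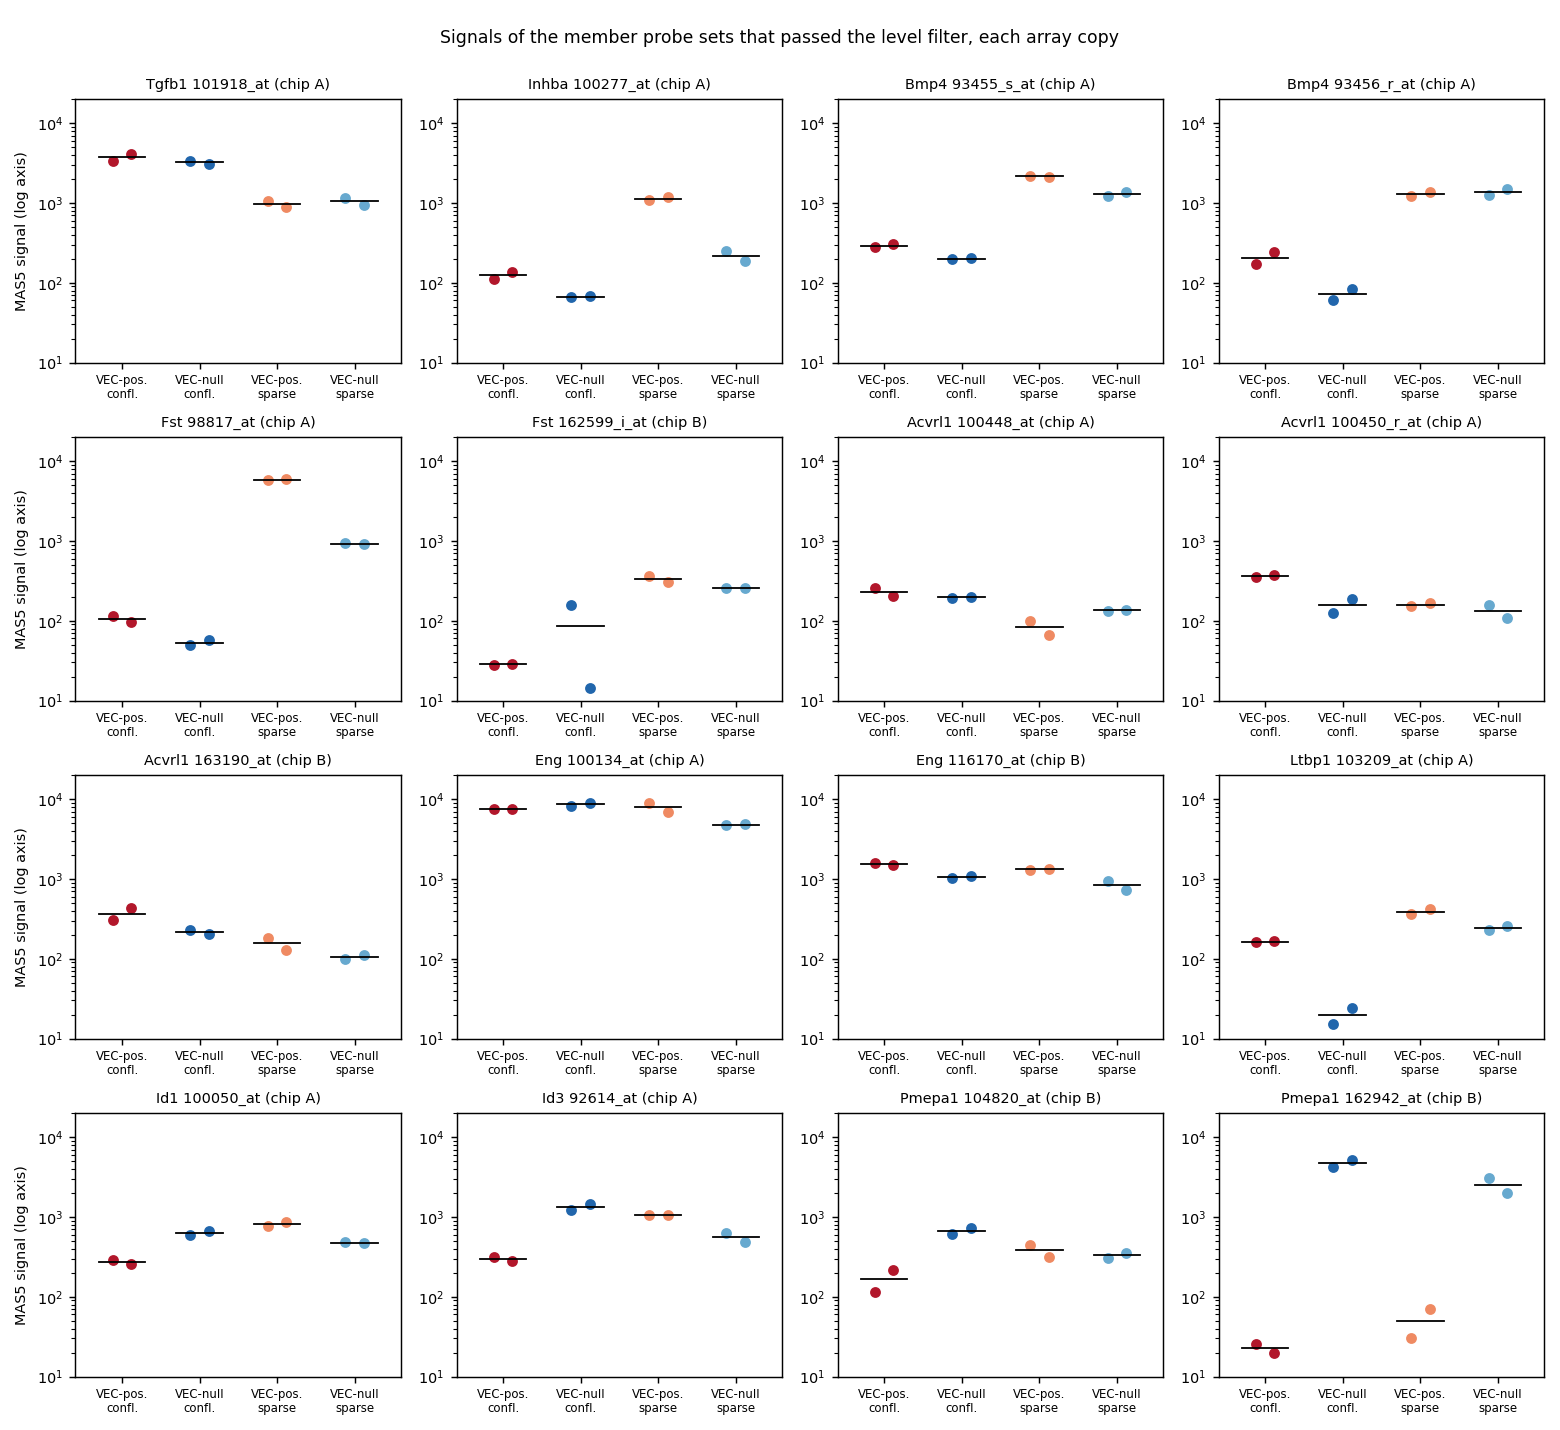
Signal of the 16 tested member probe sets on every array (log axis, MAS5 signal scaled to 500), 1 panel per probe set, with the conditions from left to right VEC-positive confluent, VEC-null confluent, VEC-positive sparse and VEC-null sparse. Each point is 1 array copy. Tgfb1 sits high in both confluent conditions, Inhba, Bmp4 and Fst sit high in the sparse ones, and Pmepa1 162942_at sits low in both VEC-positive conditions.

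Tgfb1, the prototype ligand of the family, was higher in confluent cells of either genotype. Probe set 101918_at had signals of 3390.0 and 4148.6 in VEC-positive confluent, 3330.3 and 3116.6 in VEC-null confluent, 1048.9 and 897.8 in VEC-positive sparse, and 1164.0 and 944.9 in VEC-null sparse cells. The confluent and the sparse arrays did not overlap, while the 2 sparse conditions did. Confluent over sparse, Tgfb1 rose by a log2 change of 1.9 (SE 0.13, 3.72-fold, adjusted p 2.6e-06) in VEC-positive cells and of 1.57 (SE 0.13, 2.98-fold, adjusted p 8.6e-06) in VEC-null cells. VEC-positive over VEC-null, it differed by 0.22 in confluent cells (95% interval -0.08 to 0.51, adjusted p 0.24) and by -0.11 in sparse cells (95% interval -0.4 to 0.19, adjusted p 0.56), and neither passed. The density effects of the genotypes differed by 0.32 (SE 0.19, adjusted p 0.23).

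Inhba, which encodes the beta A subunit shared by activin A and inhibin A, ran the other way and had its highest signals in sparse VEC-positive cells. Probe set 100277_at had 112.0 and 136.2 in VEC-positive confluent, 65.8 and 68.6 in VEC-null confluent, 1076.0 and 1184.2 in VEC-positive sparse, and 247.5 and 185.9 in VEC-null sparse cells. No neighbouring conditions in the order of levels overlapped. Confluent over sparse, it fell by 2.76 on the log2 scale (SE 0.16, 6.79-fold, adjusted p 8e-07) in VEC-positive cells and fell by 1.18 (SE 0.16, 2.26-fold, adjusted p 0.00023) in VEC-null cells. The second fall was smaller, and the test of that difference gave a log2 value of -1.59 (SE 0.23, adjusted p 0.00093). In sparse cells Inhba was 4.45-fold higher with VEC than without it (log2 2.15, adjusted p 1e-05). In confluent cells the difference was 0.57 (SE 0.16, adjusted p 0.023), short of the size required.

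Bmp4, a ligand of the BMP branch, was low in confluent and high in sparse cells by both of its tested probe sets. Probe set 93455_s_at had 281.6 and 304.5 in VEC-positive confluent, 199.5 and 203.2 in VEC-null confluent, 2174.5 and 2140.3 in VEC-positive sparse, and 1229.9 and 1368.4 in VEC-null sparse cells. Confluent over sparse, it fell by 2.69 on the log2 scale (6.44-fold, adjusted p 7.5e-08) in VEC-positive and fell by 2.42 (5.36-fold, adjusted p 1.3e-07) in VEC-null cells. The second probe set, 93456_r_at, had 170.8 and 240.8 in VEC-positive confluent, 61.5 and 84.7 in VEC-null confluent, 1217.6 and 1379.2 in VEC-positive sparse, and 1254.3 and 1511.9 in VEC-null sparse cells. It fell by 2.41 (5.31-fold, adjusted p 2.9e-06) in VEC-positive and fell by 3.54 (11.6-fold, adjusted p 2.3e-07) in VEC-null cells, so both probe sets placed every confluent array below every sparse one.

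The Bmp4 probe sets disagreed on genotype. In confluent cells 93456_r_at was 2.07-fold higher in VEC-positive than in VEC-null cells (log2 1.05, SE 0.17, adjusted p 0.0013), a call lost without VEC-positive confluent copy 2 (0.85) and without VEC-null confluent copy 1 (0.91), whereas 93455_s_at differed by 0.45 (adjusted p 0.01) and did not pass. In sparse cells 93455_s_at differed by 0.71 (adjusted p 0.00064), short of the size required, and 93456_r_at by -0.08 (adjusted p 0.73), its copies overlapping between the genotypes. The difference between the density effects was 1.13 (SE 0.24, adjusted p 0.007) by 93456_r_at and -0.26 (SE 0.15, adjusted p 0.22) by 93455_s_at, opposite in sign. The first fell below the size required without VEC-positive confluent copy 2 (0.93) and just below it without VEC-null confluent copy 1. The 323 tested genes on chromosome 14, where Bmp4 lies, each represented by 1 probe set, had a median VEC effect of 0.23 when confluent and 0.24 when sparse, where all 9224 tested genes had -0.01 and -0.03, and the part of this shift in the Bmp4 values was not tested. The third probe set, 164214_at, lay below the filter, with signals between 71.2 and 253.3 whose conditions overlapped.

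Fst, follistatin, which binds activins and keeps them from their receptors, had the largest density response of the members. Probe set 98817_at had 114.4 and 95.7 in VEC-positive confluent, 49.8 and 56.8 in VEC-null confluent, 5769.2 and 6017.9 in VEC-positive sparse, and 941.5 and 917.9 in VEC-null sparse cells. The order of the 4 conditions was that of Inhba, and again no neighbours overlapped. Confluent over sparse, Fst fell by 5.26 on the log2 scale (SE 0.12, 38.4-fold, adjusted p 4.4e-09) in VEC-positive cells and fell by 3.25 (SE 0.12, 9.49-fold, adjusted p 4.4e-08) in VEC-null cells, and the test of the difference gave -2.02 (SE 0.17, adjusted p 5.3e-05). VEC-positive over VEC-null, it was 6.07-fold higher in sparse cells (log2 2.6, adjusted p 5.8e-07) and differed by 0.58 in confluent cells (adjusted p 0.0042), short of the size required.

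The Fst probe set on chip B, 162599_i_at, had 28.1 and 28.7 in VEC-positive confluent, 158.0 and 14.2 in VEC-null confluent, 368.9 and 308.6 in VEC-positive sparse, and 259.6 and 257.7 in VEC-null sparse cells. In confluent over sparse cells it fell by 2.31 on the log2 scale (SE 0.47, 4.94-fold, adjusted p 0.003) with VEC and fell by 1.42 (SE 0.47, 2.67-fold, adjusted p 0.033) without it. The copies of VEC-null confluent cells were far apart, and without copy 2 of that condition the second value was -0.57 (adjusted p 0.2). That second call was also lost without VEC-null sparse copy 1 or copy 2 (adjusted p 0.11 for each) and without VEC-positive sparse copy 1 (0.052) or copy 2 (0.051). Its genotype effects did not pass in confluent (-0.56, adjusted p 0.4) or sparse cells (0.33, adjusted p 0.62). Without VEC-null confluent copy 2 the confluent value was -1.41 (adjusted p 0.014), and without copy 1 it was 0.29. The difference between its density effects was -0.89 (adjusted p 0.36), and -1.74 (adjusted p 0.019) without VEC-null confluent copy 2.

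Some markers of other cell types were, like Inhba and Fst, highest in VEC-positive sparse cells, and others were not. Of 10 epithelial and mesothelial markers 3 passed the filter, and their list's summed signal was 737 in VEC-positive confluent, 839 in VEC-null confluent, 4847 in VEC-positive sparse and 1143 in VEC-null sparse cells. Within it the mesothelial antigen gene Msln had 33.2, 30.2, 3385.7 and 596.8 in that order of conditions. The keratin gene Krt19 had 5.6, 4.8, 904.7 and 3.9. The remaining gene that passed the filter, Cdh1, was lower in the sparse conditions, at 406.8, 394.9, 319.0 and 305.1. The others on the chips, among them Krt8, Krt18, Epcam, Upk3b and Wt1, stayed below the filter. The 13 smooth muscle and fibroblast markers, of which 7 passed the filter, summed to 3952, 3104, 11663 and 3337, with S100a4 alone at 9476.5 in VEC-positive sparse cells. In that list Acta2 was highest in VEC-null sparse (371.4), Pdgfrb in VEC-null confluent (327.6) and Dcn in VEC-positive confluent cells (586.4). The 8 blood cell markers on the chips summed to 832, 1337, 765 and 748, and the 8 embryonic stem cell markers to 484, 501, 404 and 515. Their part in the results was not tested.

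Ltbp1, which anchors latent TGF-beta to the matrix, was lower in confluent cells and lowest in VEC-null confluent cells. Probe set 103209_at had 162.2 and 166.2 in VEC-positive confluent, 15.1 and 24.4 in VEC-null confluent, 366.4 and 415.7 in VEC-positive sparse, and 229.0 and 259.5 in VEC-null sparse cells. No 2 conditions overlapped. VEC-positive over VEC-null, it rose by 1.62 in confluent cells (SE 0.16, 3.08-fold, adjusted p 7.4e-05) and differed by 0.58 in sparse cells (adjusted p 0.017). Confluent over sparse, it fell by 1.04 on the log2 scale (2.06-fold, adjusted p 0.00053) in VEC-positive and fell by 2.08 (4.22-fold, adjusted p 4.8e-06) in VEC-null cells. The first of these fell below the size required without VEC-positive sparse copy 2 (-0.96). The difference between the density effects was 1.04 (SE 0.23, adjusted p 0.0079), and it was 0.94 without VEC-null confluent copy 1 and 0.96 without VEC-positive sparse copy 1 or VEC-null sparse copy 2. The other 2 Ltbp1 probe sets lay below the filter, 115613_at between 13.8 and 40.3 and 164323_at between 23.0 and 114.9.

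Acvrl1, the ALK1 receptor gene, had its highest mean signal in VEC-positive confluent cells by all 4 of its probe sets. Probe set 163190_at had 306.7 and 432.2 in VEC-positive confluent, 228.9 and 205.0 in VEC-null confluent, 182.1 and 130.4 in VEC-positive sparse, and 99.2 and 112.2 in VEC-null sparse cells. Probe set 100450_r_at had 354.7 and 372.7, then 123.7 and 189.9, then 154.1 and 165.7, then 159.8 and 108.6 in the same conditions, so that only the first condition stood apart. Probe set 100448_at had 257.8 and 204.3 in VEC-positive confluent, 195.0 and 197.3 in VEC-null confluent, 98.5 and 66.3 in VEC-positive sparse, and 134.4 and 135.8 in VEC-null sparse cells. In VEC-positive cells the receptor rose, confluent over sparse, by 1.09 (SE 0.18, 2.13-fold, adjusted p 0.00079) by 100448_at and by 1.02 (SE 0.27, 2.03-fold, adjusted p 0.011) by 163190_at, and 100450_r_at gave 0.98 (adjusted p 0.0028), just short of the size required.

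None of the 3 tested Acvrl1 probe sets passed for density in VEC-null cells, where they gave 0.41, 0.16 and 0.78 (100448_at, 100450_r_at and 163190_at), nor for the difference between the density effects (adjusted p 0.073, 0.056 and 0.67). For genotype, only 100450_r_at passed, in confluent cells, where Acvrl1 was 2.03-fold higher with VEC (log2 1.02, adjusted p 0.0037), while 163190_at gave 0.64 (adjusted p 0.095) and 100448_at 0.18 (adjusted p 0.47). These Acvrl1 calls were near the size required and moved with single arrays. The call of 100448_at was lost without VEC-positive confluent copy 1 (0.95) or VEC-positive sparse copy 2 (0.91) and with quantile normalisation (0.9), which sets the arrays to 1 distribution, and that of 163190_at without VEC-positive confluent copy 2 (0.8) or VEC-positive sparse copy 2 (0.84). The genotype call of 100450_r_at was lost without VEC-positive confluent copy 2 (0.99) or VEC-null confluent copy 1 (0.79), and its density value in VEC-positive cells passed at 1.01 without VEC-positive confluent copy 1 and at 1.02 without VEC-positive sparse copy 2. Its difference between the density effects passed without VEC-null confluent copy 2 (1.05) or VEC-null sparse copy 2 (1.02). The fourth probe set, 100449_g_at, lay below the filter, between 27.7 and 164.3.

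Eng, the co-receptor endoglin, was measured by 2 probe sets, and none of their changes passed. Probe set 100134_at had 7642.8 and 7648.4 in VEC-positive confluent, 8258.3 and 8990.4 in VEC-null confluent, 8961.8 and 7015.1 in VEC-positive sparse, and 4734.2 and 4839.0 in VEC-null sparse cells, so that the last condition was the low one. There the VEC effect was 0.72 (SE 0.11, 1.65-fold, adjusted p 0.00057) and the density effect in VEC-null cells 0.84 (SE 0.11, 1.79-fold, adjusted p 0.00013), and the density effects differed by -0.89 (SE 0.15, adjusted p 0.0021). Without VEC-positive sparse copy 2 that last value passed at -1.07. Probe set 116170_at had 1593.6 and 1495.2 in VEC-positive confluent, 1015.2 and 1089.8 in VEC-null confluent, 1300.3 and 1345.2 in VEC-positive sparse, and 951.5 and 727.3 in VEC-null sparse cells. By that probe set both VEC-positive conditions lay above both VEC-null ones, with VEC effects of 0.53 (adjusted p 0.014) in confluent and 0.64 (adjusted p 0.0046) in sparse cells. In confluent cells the first probe set gave -0.17 (adjusted p 0.25) for the same comparison. Eng is also on the endothelial marker list given above.

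**Figure D2:**
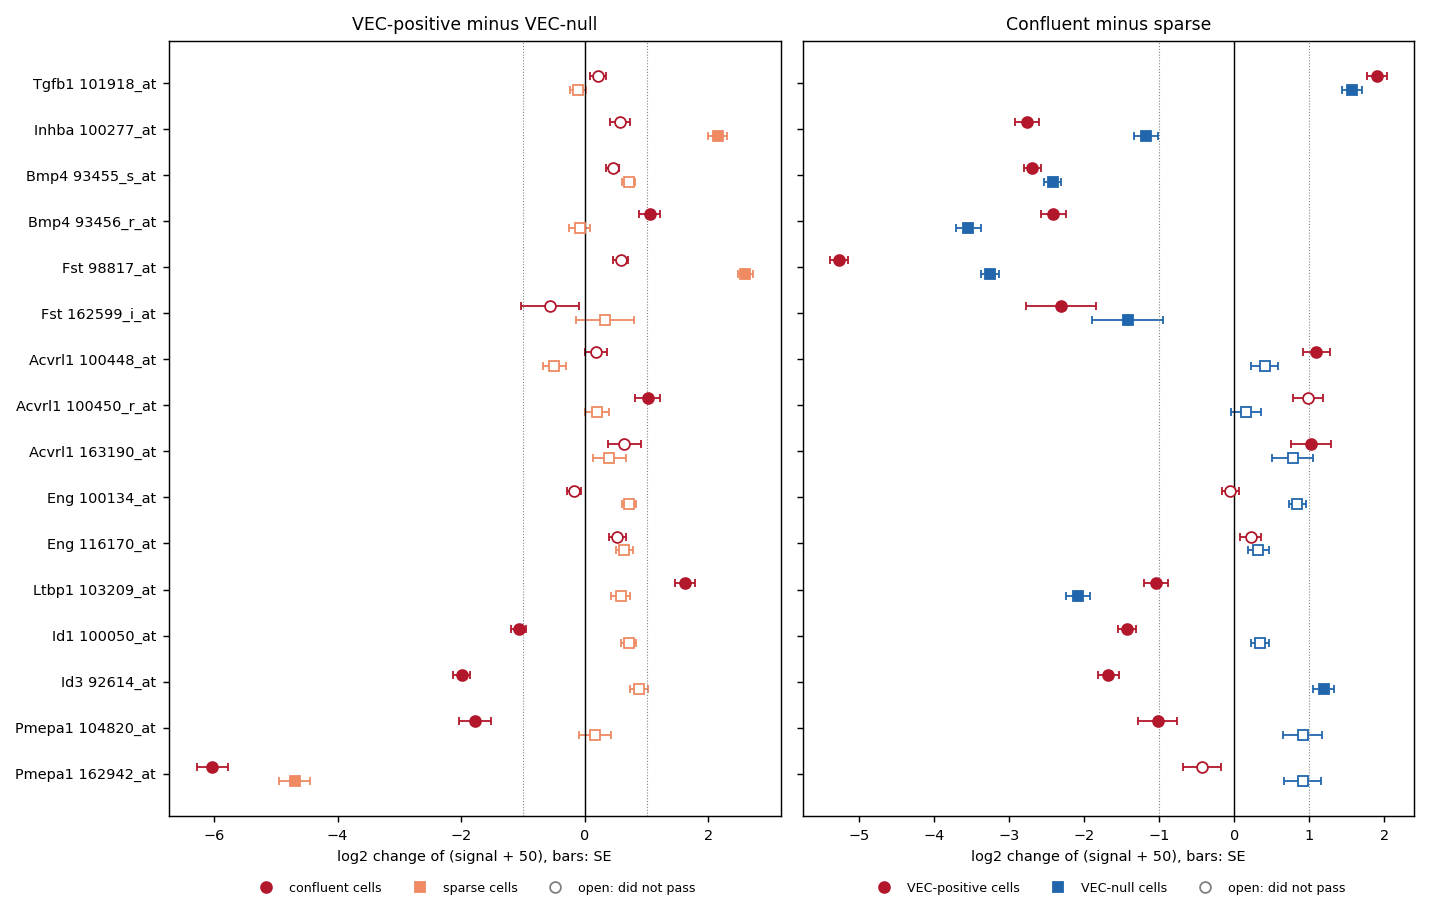
Log2 change of each tested member probe set with its standard error, at left VEC-positive minus VEC-null in confluent and in sparse cells, at right confluent minus sparse in VEC-positive and in VEC-null cells. Filled points passed and dotted lines mark a log2 change of 1 in either direction. Id1, Id3, Pmepa1 104820_at, Eng 100134_at and Fst 162599_i_at lie left of 0 in confluent and right of 0 in sparse cells for the VEC effect. None of their sparse values passed. Fst 98817_at reaches -5.26 for density.

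Id1 and Id3, BMP targets whose proteins block basic helix-loop-helix transcription factors, changed with density in a way that differed between VEC-positive and VEC-null cells. Id1 probe set 100050_at had 286.6 and 257.0 in VEC-positive confluent, 589.3 and 658.7 in VEC-null confluent, 760.6 and 878.1 in VEC-positive sparse, and 482.2 and 475.8 in VEC-null sparse cells. Id3 probe set 92614_at had 316.3 and 280.2 in VEC-positive confluent, 1223.3 and 1452.3 in VEC-null confluent, 1051.7 and 1073.5 in VEC-positive sparse, and 638.8 and 480.7 in VEC-null sparse cells. VEC-positive confluent cells had the lowest signal of both genes, and no conditions overlapped.

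Confluent over sparse, Id3 fell by 1.68 on the log2 scale (SE 0.14, 3.2-fold, adjusted p 1.1e-05) in VEC-positive cells and rose by 1.19 (SE 0.14, 2.29-fold, adjusted p 9.9e-05) in VEC-null cells, and the difference between these effects was -2.87 (SE 0.2, adjusted p 2.8e-05). Id1 fell by 1.43 (SE 0.12, 2.7-fold, adjusted p 1.1e-05) in VEC-positive cells, whereas in VEC-null cells its change was 0.35 (SE 0.12, adjusted p 0.042), short of the size required, and the effects differed by -1.78 (SE 0.18, adjusted p 0.00012). VEC-positive over VEC-null, in confluent cells Id3 was 3.98-fold lower (log2 -1.99, adjusted p 1.2e-05) and Id1 2.09-fold lower (log2 -1.07, adjusted p 0.00018). In sparse cells the values had the other sign, 0.88 (adjusted p 0.0011) for Id3 and 0.71 (adjusted p 0.0015) for Id1, and neither passed. The Id1 call in confluent cells was lost without VEC-null confluent copy 2 (-0.99) and fell just under the size required without VEC-positive confluent copy 2. Id3 in sparse cells passed at 1.07 without VEC-null sparse copy 1. With quantile normalisation the confluent VEC effects were -1.11 for Id1 and -2.1 for Id3.

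Pmepa1, a target of TGF-beta whose membrane protein binds Smads and dampens the signal, was measured by 2 probe sets on chip B that disagreed in the size of change. Probe set 162942_at had 25.7 and 19.9 in VEC-positive confluent, 4283.4 and 5179.2 in VEC-null confluent, 30.0 and 70.1 in VEC-positive sparse, and 3056.2 and 2001.9 in VEC-null sparse cells. The VEC-positive arrays were thus at the dim end of the chip and the VEC-null arrays bright at either density. VEC-positive over VEC-null, it fell by 6.03 on the log2 scale (SE 0.25, 65.4-fold, adjusted p 5.1e-07) in confluent and fell by 4.69 (SE 0.25, 25.8-fold, adjusted p 1.7e-06) in sparse cells. Probe set 104820_at had 116.4 and 215.2 in VEC-positive confluent, 616.0 and 718.8 in VEC-null confluent, 443.8 and 319.4 in VEC-positive sparse, and 307.2 and 354.3 in VEC-null sparse cells. It fell by 1.77 (SE 0.26, 3.41-fold, adjusted p 0.00074) in confluent cells, and in sparse cells, where the copies of the genotypes overlapped, it gave 0.17 (95% interval -0.42 to 0.75, adjusted p 0.65).

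Both Pmepa1 probe sets gave a density value of 0.91 in VEC-null cells (adjusted p 0.014 for 162942_at and 0.016 for 104820_at), short of the size required. In VEC-positive cells 104820_at fell by 1.02 (SE 0.26, 2.03-fold, adjusted p 0.0095) and 162942_at, with signals of 70.1 or less in these cells, gave -0.43 (adjusted p 0.19). The density effects differed by -1.94 (SE 0.37, adjusted p 0.004) for 104820_at and by -1.35 (SE 0.36, adjusted p 0.019) for 162942_at. The order of the conditions of 104820_at was that of Id3, whereas 162942_at divided the arrays by genotype first. The fall of 104820_at with density was lost without VEC-positive confluent copy 1 (-0.69) or VEC-positive sparse copy 1 (-0.81), and with quantile normalisation it was -0.96. Its density value in VEC-null cells passed without VEC-null confluent copy 1 (1.02) and reached the size required without VEC-null sparse copy 2, and that of 162942_at passed without VEC-null confluent copy 1 (1.05) or VEC-null sparse copy 1 (1.21). The difference between the density effects of 162942_at lost its call without copy 2 of VEC-positive confluent (adjusted p 0.054), VEC-null confluent (0.079), VEC-positive sparse (0.053) or VEC-null sparse cells (0.086). The transcripts that either probe set reads were not analysed here.

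Counted over the 16 tested member probe sets, 3 rose and 4 fell in VEC-positive against VEC-null confluent cells, where 7.91% of all 14301 tested probe sets passed (4.29% higher and 3.62% lower). In sparse cells 2 rose and 1 fell, where 9.71% passed (5.43% higher and 4.27% lower). Confluent over sparse, 3 rose and 9 fell in VEC-positive cells, where 15.3% passed (8.13% higher and 7.21% lower). In VEC-null cells 2 rose and 6 fell, where 16.5% passed (9.08% higher and 7.4% lower). The difference between the density effects passed for 8 member probe sets, 2 above 0 and 6 below, where 12.2% of all passed (5.89% above and 6.31% below). The members' medians in these 5 comparisons were 0.33, 0.49, -1.03, 0.33 and -0.58, against -0.03, -0.03, 0.02, 0 and 0.01 over all tested probe sets. Several member probe sets read the same gene, so that these counts are not of independent genes. The members were also chosen with earlier results of these data known. Their counts set beside the shares of all probe sets are therefore descriptions and carry no test. Of the 7 confluent VEC calls the 3 rises lay in Acvrl1, Bmp4 and Ltbp1 and the 4 falls in Id1, Id3 and both Pmepa1 probe sets. That count was 4 without VEC-positive confluent copy 2, the lowest without any single array copy.

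Some calls rested on the offset of 50. With an offset of 200, which shrinks changes of dim signals, the density value of Inhba in VEC-null cells was -0.64, and Ltbp1 gave 0.73 for VEC in confluent cells, -0.7 for density in VEC-positive cells and 0.32 for the difference between the density effects. Id1 gave -0.8 and Bmp4 93456_r_at 0.57 for VEC in confluent cells, and this Bmp4 probe set gave 0.64 for the difference between the density effects. Acvrl1 gave 0.61 (100448_at) and 0.67 (163190_at) for density in VEC-positive cells and 0.67 (100450_r_at) for VEC in confluent cells. The remaining calls lost at this offset were those of Fst 162599_i_at in VEC-null cells (-0.73) and of Pmepa1 104820_at in VEC-positive cells (-0.67), both for density, while no sign changed among calls.

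**Figure D3:**
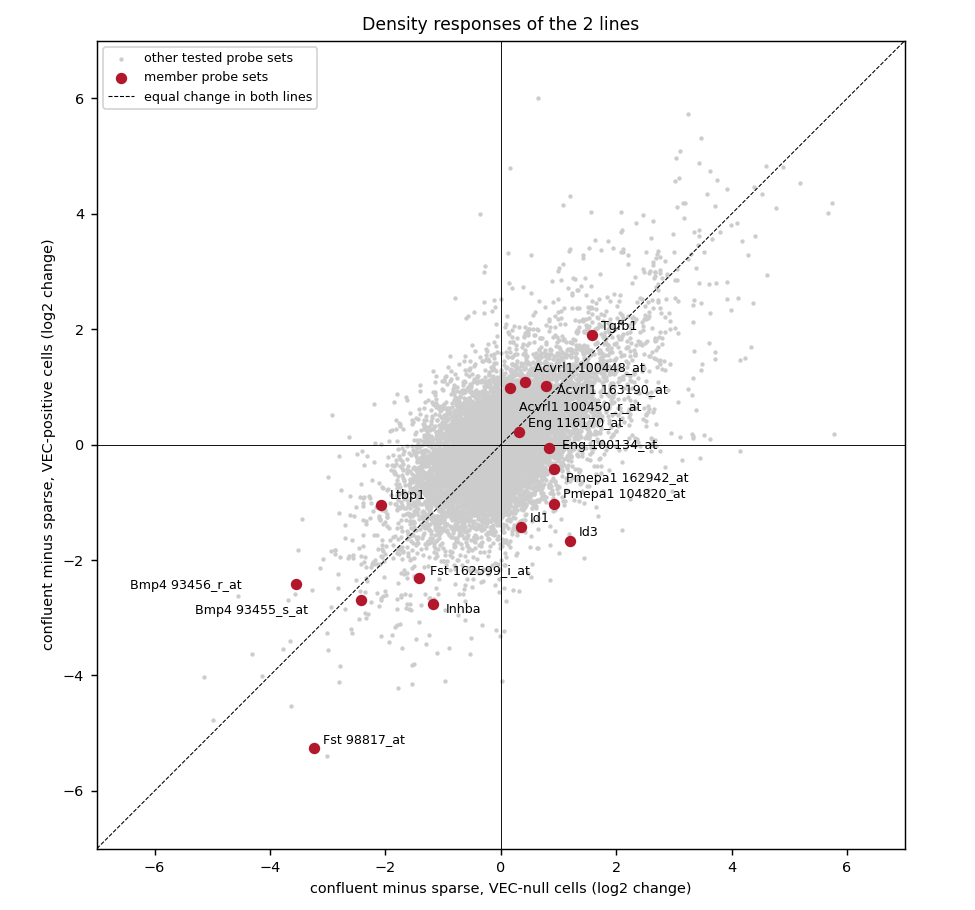
Density effect (log2, confluent minus sparse) in VEC-positive cells (vertical axis) against that in VEC-null cells (horizontal axis), with all 14301 tested probe sets in grey and the 16 member probe sets in red. Tgfb1 lies in the upper right, Fst, Bmp4, Inhba and Ltbp1 in the lower left, and Id3, Id1 and both Pmepa1 probe sets in the lower right.

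A second fit averaged the copies, so that the 4 cRNA samples per chip were the units, and assumed that VEC and density add up. It left 1 residual degree of freedom, which with 4 means is the difference between the density effects of the genotypes. Spread between cultures does not enter it. With prior degrees of freedom of 7.91 (chip A) and 23.7 (chip B), its p values rest mostly on this residual pooled over probe sets. That difference passed above for Inhba, Ltbp1, Fst 98817_at, Pmepa1 162942_at and 1 Bmp4 probe set, so that VEC and density did not add up there. The p values of this fit are therefore no test over cultures. For density, 1 member probe set rose and 6 fell (9.9% of all probe sets passed, 5.78% higher and 4.13% lower), with Tgfb1 at 1.74 (SE 0.32, adjusted p 0.0079), Inhba at -1.97 (adjusted p 0.01), Bmp4 at -2.55 and -2.98 (adjusted p 0.0004 and 0.00038), Fst at -4.25 and -1.86 (adjusted p 0.00024 and 0.031) and Ltbp1 at -1.56 (adjusted p 0.022). With the offset of 200 the calls of Inhba (-1.34, adjusted p 0.055), Ltbp1 (-0.86) and Fst 162599_i_at (-0.98) were lost, and with quantile normalisation that of Fst 162599_i_at (-1.82, adjusted p 0.053). For VEC, Pmepa1 162942_at was the member probe set that passed (2.24% of all did, 1.41% higher and 0.825% lower), at -5.36 (SE 0.31, adjusted p 2.9e-11, and 5.8e-06 with quantile normalisation). The other Pmepa1 probe set gave -0.8 (adjusted p 0.33), Inhba 1.36 (adjusted p 0.14) and Fst 98817_at 1.59 (adjusted p 0.12). Id1 and Id3, whose VEC values had opposite signs at either density, passed for neither term of this additive model.

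Beyond the members, 107 other genes of the pathways were listed by role, with earlier results of these data known. Of these, 89 were on the chips and 61 passed the filter. Each gene was represented by 1 probe set. In VEC-positive against VEC-null cells 7 rose and 6 fell when confluent and 11 rose and 4 fell when sparse. Confluent over sparse, 7 rose and 11 fell in VEC-positive cells, and 12 rose and 6 fell in VEC-null cells. The shares that passed over all probe sets are those given above for the same comparisons, and they count probe sets where these counts are of genes.

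Of 9 other receptors tested, 3 rose and 1 fell with density in VEC-positive cells, and 2 rose in VEC-null cells, while 1 rose and 1 fell with VEC in sparse cells. The TGF-beta receptor genes Tgfbr1 and Tgfbr2 rose in confluent cells of both genotypes, in the direction of Tgfb1. Tgfbr2, the type II receptor, averaged 6829.5 in VEC-positive confluent and 11424.8 in VEC-null confluent cells, and 1189.8 in VEC-positive sparse and 1694.7 in VEC-null sparse cells, which gave log2 changes with density of 2.47 (SE 0.09, adjusted p 3.8e-08) with VEC and 2.72 (adjusted p 2.1e-08) without it. Tgfbr1, the type I receptor ALK5, rose by 1.42 (adjusted p 7.2e-05) and 2.2 (adjusted p 3.5e-06). The type I BMP receptor gene Bmpr1a averaged 140.3 ± 66 in VEC-positive confluent and 206.1 ± 41 in VEC-null confluent cells, and 996.0 ± 450 in VEC-positive sparse and 225.3 ± 55 in VEC-null sparse cells (SD, n = 2 copies each), so that VEC-positive sparse cells stood apart. It fell by 2.43 with density in VEC-positive cells (SE 0.35, adjusted p 0.00033) and its other 2 probe sets gave -1.67 and -1.22.

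Among the other ligands 8 were tested. Gdf11 rose with VEC in confluent (1.27, adjusted p 0.01) and sparse cells (1.97, adjusted p 0.00073). Inhbb, the beta B subunit of activins, was lower with VEC in confluent cells (-1.48, adjusted p 0.00029) and rose with density in VEC-null cells (1.53, adjusted p 0.0001), opposite in sign to Inhba. Tgfb2 fell with density in VEC-positive cells (-1.44, adjusted p 9.6e-05), opposite in sign to Tgfb1.

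Of 6 other extracellular antagonists, 1 rose with VEC in confluent and 3 in sparse cells. The BMP antagonist Grem1 was the one that fell with density in VEC-positive cells, at 38.4 ± 0.85 in confluent against 375.6 ± 130 in sparse cells (log2 -2.24, SE 0.34, adjusted p 0.00053), and it was higher with VEC in sparse cells (1.85, adjusted p 0.0022). Its signal was thus high in the condition in which Fst was highest. Of 6 other latency and activation genes, 2 rose with VEC in confluent and 1 in sparse cells, and 2 rose with density in VEC-positive and 3 in VEC-null cells. Ltbp4 rose with VEC in confluent (1.72, adjusted p 1.8e-05) and sparse cells (1.67, adjusted p 1.7e-05). Emilin1, whose matrix protein holds back TGF-beta processing, rose with VEC in confluent cells (1.28, adjusted p 0.00073) and with density in VEC-positive (1.67, adjusted p 6.6e-05) and VEC-null cells (1.02, adjusted p 0.0015). The membrane protease gene Mmp14 rose with density in VEC-positive (1.75, adjusted p 1.3e-06) and VEC-null cells (2.8, adjusted p 7e-08).

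Of 15 Smads and regulators, 1 fell with VEC in confluent cells, and 2 rose and 1 fell with VEC in sparse cells. Confluent over sparse, 1 rose and 3 fell in VEC-positive cells, and 1 rose and 1 fell in VEC-null cells. The inhibitory Smad6, also a BMP target, was higher with VEC in sparse cells (1.59, adjusted p 0.00087) and lower in confluent than in sparse VEC-positive cells (-1.18, adjusted p 0.0037). The BMP-branch transducer Smad1 rose with density in VEC-positive (1.07, adjusted p 1.4e-05) and VEC-null cells (1.26, adjusted p 4.4e-06).

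The 20 other target genes include some of an earlier role, Smad6 among them, which are counted under both roles. Among these 20 the directions were mixed, with 3 higher and 4 lower with VEC in confluent cells and 4 higher and 2 lower in sparse cells. Confluent over sparse, 1 rose and 6 fell in VEC-positive cells, and 5 rose and 5 fell in VEC-null cells. The matricellular gene Ccn2, a target of TGF-beta and of other pathways, averaged 696.0 ± 64 in VEC-positive confluent and 138.2 ± 2.1 in VEC-null confluent cells, against 12246.7 ± 2100 in VEC-positive sparse and 6631.4 ± 800 in VEC-null sparse cells, and in confluent over sparse cells fell by 4.04 (adjusted p 2.2e-08) with VEC and fell by 5.14 (adjusted p 7e-09) without it. The cell cycle inhibitor gene Cdkn1a averaged 4802.8 in VEC-positive confluent and 451.1 in VEC-null confluent cells, and 3358.4 in VEC-positive sparse and 610.5 in VEC-null sparse cells, with VEC effects of 3.28 (adjusted p 9.6e-08) and 2.37 (adjusted p 3.7e-07) and of 1.03 and 1.81 by another probe set. Gja4, the connexin 37 gene, averaged 24.6 ± 8.8 in VEC-positive confluent and 661.0 ± 18 in VEC-null confluent cells, and 16.3 and 12.2 in the sparse ones. The transcriptional repressor gene Bhlhe40 was lowest in VEC-positive confluent cells, at 106.1 ± 3.5, as were Id1 and Id3. The related Id2 was lower with VEC in sparse cells (-1.06, adjusted p 0.00029) and fell with density in VEC-null cells (-1.49, adjusted p 1.7e-05).

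**Figure D4:**
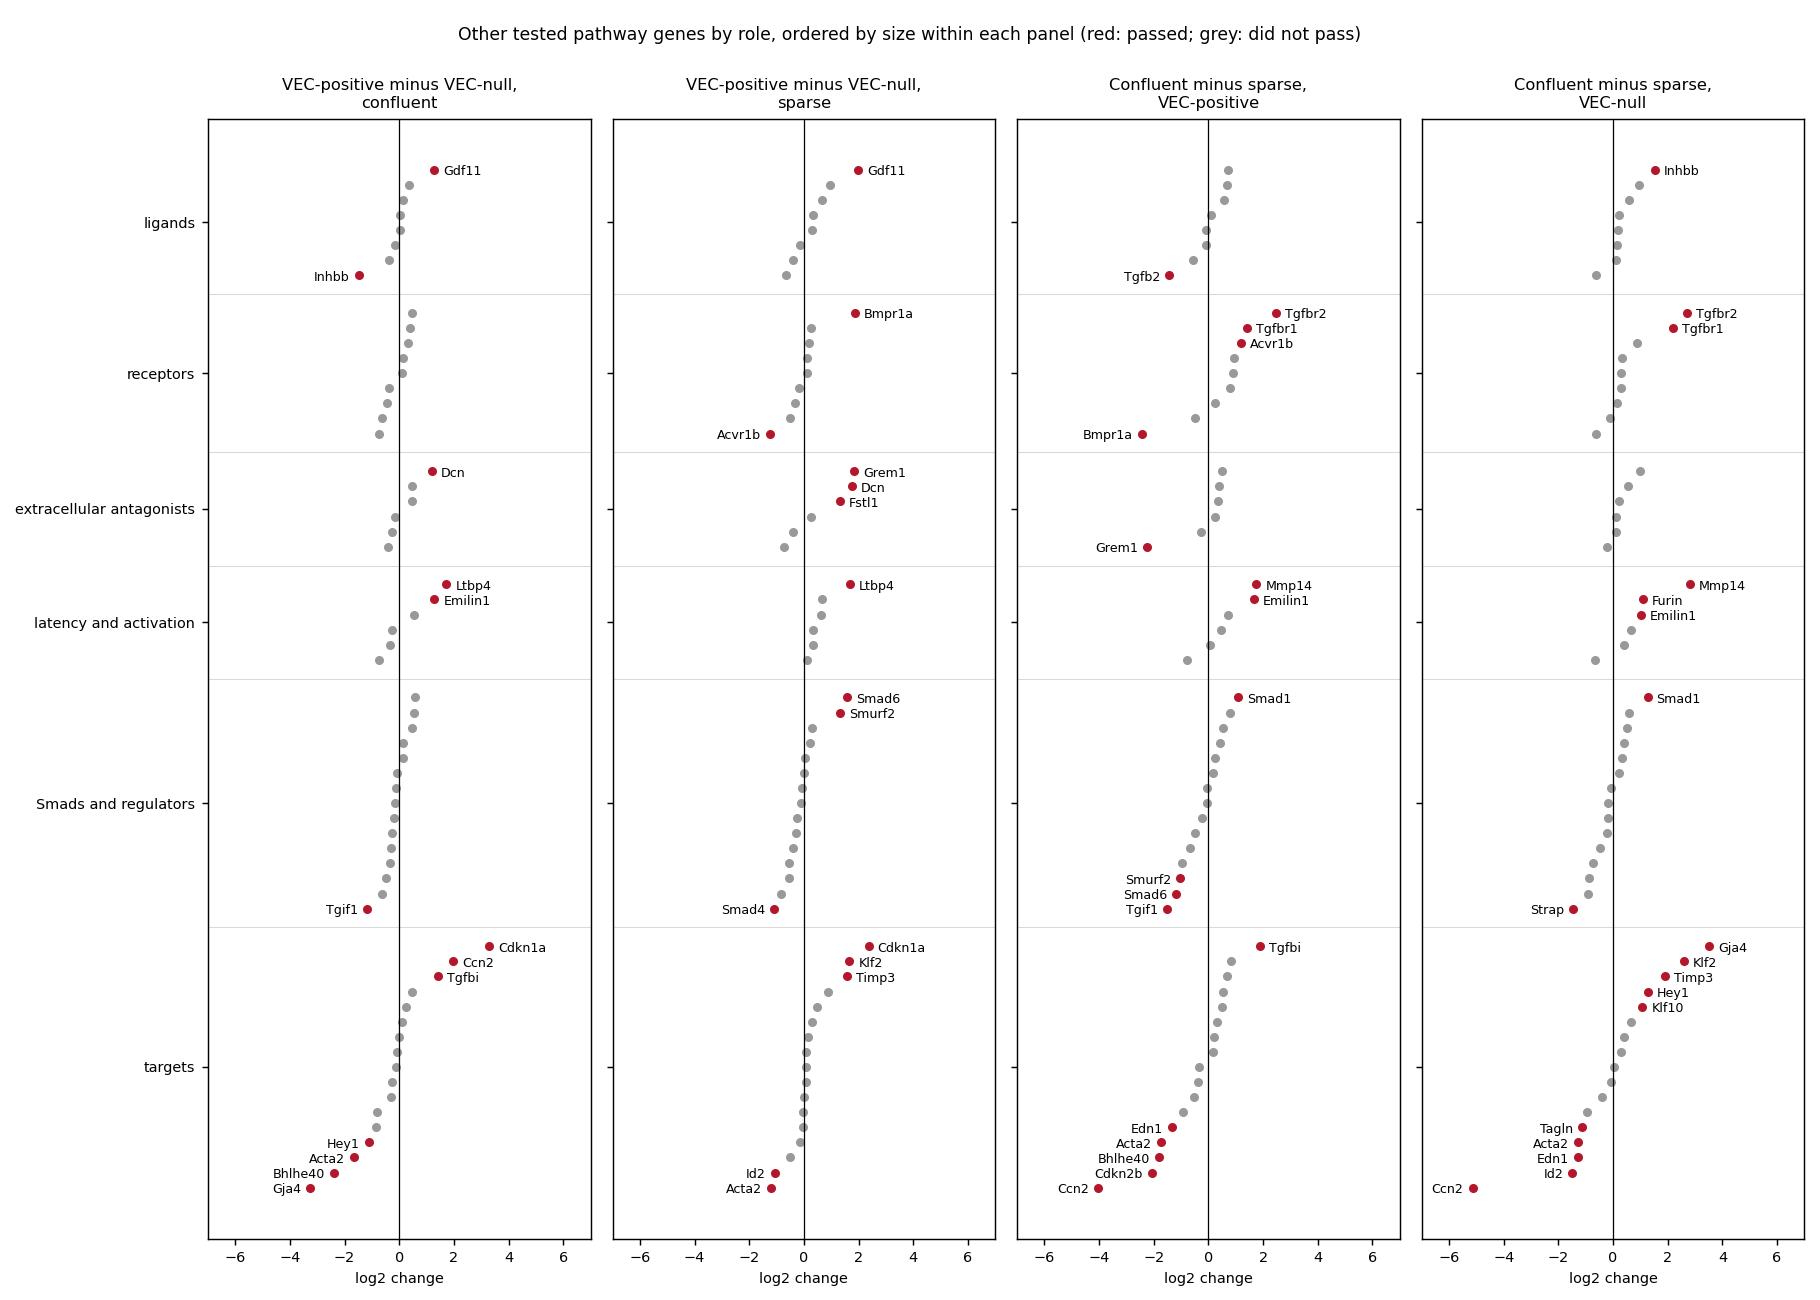
Log2 change of the 61 other tested pathway genes by role, in 4 panels for the VEC effect in confluent and in sparse cells and the density effect in VEC-positive and in VEC-null cells. Red named points passed and grey points did not, and a gene on 2 lists is drawn under its first role. Tgfbr1 and Tgfbr2 lie right of 0 in both density panels and Ccn2 lies farthest to the left there.

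The genes most like a member were those with the smallest root mean square difference of their centred log2 means over the 4 conditions, among 9224 genes each represented by 1 probe set. For Tgfb1 they were Socs2 (0.057) and Hdac5 (0.059). For Inhba they were Sorbs2 (0.11) and Rhpn2 (0.21), and for Bmp4 93455_s_at they were Pcolce2 (0.13) and Fkbp11 (0.15). Fst had Msln (0.21), the mesothelial marker above, as its nearest gene and then Bdnf (0.61). Ltbp1 was nearest to Xpot (0.14) and Nav2 (0.16). Acvrl1 100450_r_at was nearest to Rabgap1l (0.028) and Zbtb5 (0.05). Id1 was nearest to Nt5c (0.075) and Ext1 (0.087), and Id3 to Dusp6 (0.16) and Hilpda (0.27). Pmepa1 162942_at was nearest to Sox11 (0.33) and Mest (0.86). With 4 conditions these are descriptions of likeness in these arrays and carry no test.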

How the data were processed

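Linear signal intensity per probe set was measured on 16 Affymetrix arrays, 8 of each chip. Per the labels' protocols, the authors computed these intensity values with MAS5 at a scaling target of 500, and the submitters' processing notes name the same tool. A median normalisation across samples, which the design text mentions, was not visible in the tables. The values were used as deposited. Its version is not stated. Columns of other series numbered 0.

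Of 24833 probe sets without controls (66 controls per chip were left out), 21414 had 1 gene symbol in the platform annotation, 574 several and 2845 none, and 21367 were matched to RefSeq GRCm38.p6. Values were tested as log2(signal + 50) with limma 3.58.1 (R 4.3.3), per chip over 4 conditions, with trended variances (4 residual degrees of freedom, prior 5.65 on chip A and 5.62 on chip B). Probe sets were kept if a condition's mean lay above the chip median (a signal of 160.3 for chip A, 231 for chip B), keeping 6997 and 7304 probe sets. Adjusted p values are limma's, with Benjamini-Hochberg adjustment over both chips. The scripts were tested on simulated data. With 2 arrays per condition and chip, their number limits the precision.

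The members and gene lists were chosen with earlier results of these data known. All member probe sets are named; of the other pathway genes, the rule named the 4 largest changes that passed in each VEC or density comparison, and Tgfbr1, Inhbb, Tgfb2, Ltbp4, Emilin1, Smad1, Smad6 and Id2 were chosen after their values were seen. Alternatives were an offset of 16 or 200, no filter or the 75th percentile, quantile normalisation, no variance trend, a replicate block and leaving out each array copy. Array copies with the same number did not visibly deviate together (correlations of -0.089 to 0.078). The labels do not say whether a number marks a batch, and these correlations cannot exclude it.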

Additional observations from a re-analysis of the deposited data

Results flagged for a closer look

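For 8 member probe sets of 7 genes the density effect (confluent minus sparse) differed between VEC-positive and VEC-null cells by limma's test of the difference itself. Of all 14301 tested probe sets, 12.2% passed this test. The difference, VEC-positive minus VEC-null, was -2.87 on the log2 scale for Id3 (adjusted p 2.8e-05), where the effects were -1.68 and 1.19, and -1.78 for Id1 (adjusted p 0.00012), where they were -1.43 and 0.35. For Pmepa1 it was -1.94 by 104820_at (adjusted p 0.004) and -1.35 by 162942_at (adjusted p 0.019), and for Fst 98817_at it was -2.02 (adjusted p 5.3e-05). Inhba gave -1.59 (adjusted p 0.00093), Ltbp1 gave 1.04 (adjusted p 0.0079) and Bmp4 93456_r_at gave 1.13 (adjusted p 0.007), while the other Bmp4 probe set gave -0.26. Groups of 2 array copies are too small for a test of outlying arrays. The calls of Ltbp1, Bmp4 93456_r_at and Pmepa1 162942_at were lost without some single array copies. With the offset of 200 those of Ltbp1 (0.32) and Bmp4 93456_r_at (0.64) were lost as well. These tests compare 1 cRNA sample per condition.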

How the results depend on the processing

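Of 38 member results that passed in the 5 comparisons over array copies, 23 were tested and passed under every alternative and 0 changed sign. With an offset of 200, 12 were lost, without 1 array copy 11, with quantile normalisation 2 (density in VEC-positive cells for Acvrl1 100448_at and Pmepa1 104820_at) and with no filter 1 (density in VEC-null cells for Fst 162599_i_at). With a filter at the 75th percentile 9 were not tested and 0 of the others were lost. With the offset of 200, the probe sets that passed numbered 590 and 689 for VEC in confluent and sparse cells, 1305 and 1444 for density in VEC-positive and VEC-null cells, 1018 for the difference between density effects, and 203 (VEC) and 911 (density) with averaged copies, with 3 member probe sets for VEC in confluent cells and 4 for density with averaged copies. A filter at the 75th percentile left 699 and 920 for VEC in confluent and sparse cells by testing fewer probe sets, and quantile normalisation left 199 for VEC with averaged copies. The cause of the other shifts was not tested. Without 1 array copy, the 5 counts, in the order above, were 1093 to 1207, 1372 to 1526, 2182 to 2318, 2333 to 2404 and 1630 to 1801, and the members' counts were 4 to 7, 3 to 4, 10 to 12, 7 to 10 and 6 to 9. With the replicate block they were 1133, 1389, 2196, 2362 and 1746, with 7, 3, 12, 8 and 8 members and 0 member calls lost.

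The sign turned for 8 results of these comparisons, and for 1 with averaged copies, none of which had passed. With quantile normalisation Eng 100134_at gave 0.12 for VEC in confluent cells and 0.37 for density in VEC-positive cells. Over the fits without 1 array copy, Eng 100134_at ranged from -0.23 to 0.12 for density in VEC-positive cells and Acvrl1 100450_r_at from -0.07 to 0.4 (also -0.04) in VEC-null cells. For VEC in sparse cells Tgfb1 ranged from -0.25 to 0.04, Bmp4 93456_r_at from -0.21 to 0.05 (also 0) and Pmepa1 104820_at from -0.04 to 0.38, and in confluent cells Fst 162599_i_at from -1.41 to 0.29. Eng 116170_at ranged from -0.29 to 0.08 for the difference between density effects. With the offset of 200 and averaged copies, Pmepa1 104820_at gave 0.02 for density. The limits are 1 cRNA sample per condition, signals near background without detection calls, and MAS5 scaling.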
